A study of Rattus norvegicus with 11 samples.

Results

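Rat bone marrow mesenchymal stem cells (BMSCs) that had received medium conditioned by unirradiated dendritic cells were compared with control BMSCs. The comparison used the 3 libraries labelled imDC and the 4 control libraries, all from day 3, and took every gene that had at least 1 FPKM (fragments per kilobase of transcript and of sequencing depth) in at least 3 of these 7 libraries. This left 12270 of the 32883 genes in the deposited table. The series text names an arm of 0 Gy, without irradiation, and the library names carry no dose, so that imDC is taken for the unirradiated arm from its name. The series text writes mDC for the dendritic cells and the library names imDC, so which dendritic cells conditioned the medium is not settled by the labels. Both groups are BMSCs of the same species, with no genotype, strain, sex or age given, and the labels do not describe what medium the controls had. What dendritic cells released thus cannot be told apart from any other difference between the media or from a batch of medium. The names call the libraries biological replicates but do not say which cultures or animals they came from, so each p-value measures the spread between these libraries.

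BMSCs grow from marrow as adherent stromal cells, make matrix, support blood formation and can turn into bone, fat and cartilage cells. Dendritic cells sample antigens and release cytokines, lipids and metabolites into their medium. Stromal cells read such signals through cytokine and Toll-like receptors, many of which act through the transcription factor NF-kB, and they can answer with chemokines, growth factors and matrix enzymes.

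Depth was 17780428 to 19571859 reads in genes for imDC libraries and 21213271 to 25521204 for control libraries. Pearson's r across genes, which are not independent replicates, was 0.993 between libraries of a group and 0.942 to 0.944 between groups. The coefficient of variation beyond counting error was taken only over genes with many reads, 3842 for imDC and 4578 for control. Its median over these genes was 1.52% among imDC libraries and 2.34% among control libraries. These medians do not describe the spread of genes with fewer reads. Changes below are differences of log2(FPKM + 1), imDC minus control, with their standard error (SE), a scale that understates the change of low genes. A gene was called where limma with Benjamini-Hochberg adjustment gave an adjusted p under 0.05, and levels are mean FPKM ± SD (n = 3 for imDC and n = 4 for control).

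The labelled cell type was checked on its markers. The stromal genes Thy1 (862 ± 5.60 FPKM in imDC and 977 ± 20.2 FPKM in control), Cd44 (99.04 ± 1.07 FPKM in imDC and 103 ± 2.01 FPKM in control) and Cxcl12 (705 ± 3.01 FPKM in imDC and 506 ± 7.71 FPKM in control) were abundant in both groups, and the marrow stromal receptor gene Lepr lay under the filter, with 0.135 ± 0.0521 FPKM in imDC and 0.879 ± 0.112 FPKM in control. Genes of leukocytes were present as well. Of 22 listed macrophage genes 19 were tested, and their summed level was 1079 to 1097 FPKM in imDC libraries and 1092 to 1118 FPKM in control libraries. Lyz2, which encodes the lysozyme of macrophages, stood at 496 ± 11.2 FPKM in imDC and 519 ± 5.87 FPKM in control, and Ptprc, the pan-leukocyte gene of CD45, at 8.48 ± 0.931 FPKM in imDC and 17.6 ± 0.723 FPKM in control. Of 18 listed lymphocyte and pan-leukocyte genes 6 were tested, Ptprc among them. Their summed level differed less than Ptprc, with 139 to 140 FPKM in imDC libraries and 151 to 157 FPKM in control libraries. Of 21 listed dendritic cell genes 5 were tested, 3 had 0 reads in all 7 libraries, and the summed level was 45.3 to 48.2 FPKM in imDC libraries and 39.6 to 45.9 FPKM in control libraries. The defining genes Itgax, Flt3, Zbtb46 and Ccr7 lay under the filter in both groups. RT1-Da (0.855 FPKM in imDC and 0.256 FPKM in control) and RT1-Ba (0.712 FPKM in imDC and 0.323 FPKM in control) did too. The tested markers went both ways. Cd74 averaged 6.29 ± 0.454 FPKM in imDC and 2.63 ± 0.589 FPKM in control, and Cd83 1.85 ± 0.297 FPKM in imDC and 5.72 ± 0.325 FPKM in control. Cd3e of T cells and Hbb of red cells had 0 reads in each of the 7 libraries, which allows up to 3 reads per library. A change below therefore cannot be assigned to stromal cells alone, and in bulk RNA fewer cells of a type and less RNA per cell cannot be told apart.

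**Figure D1:**
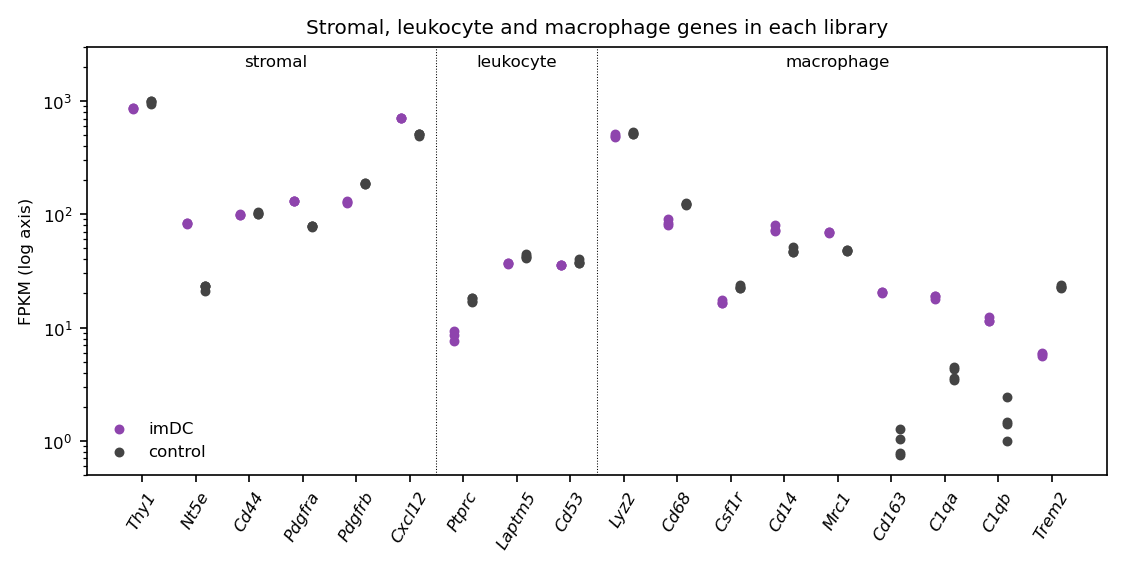
Stromal, leukocyte and macrophage genes in each library. The vertical axis gives FPKM on a log axis, purple points are the 3 imDC libraries and dark points the 4 control libraries. Lyz2 lay close together in both groups (496 FPKM in imDC and 519 FPKM in control), while Cd163 and C1qa stood higher and Ptprc and Trem2 lower in imDC.

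Most genes differed by a small amount. Of 12270 genes, 7727 were called (63.0%), 2764 higher in imDC (22.5%) and 4963 lower (40.4%). Of these calls 72.1% were smaller than 1.5-fold. Counts of called list members from the main fit below are to be read beside 22.5% higher and 40.4% lower for all genes. The median change of all genes was -0.09, so a gene that did not move against the rest sits slightly below 0. With TMM-like scaling, which divides each library by a trimmed mean of its ratios to the others and raises that median by 0.094, the calls split into 3700 higher and 3643 lower, against 2764 and 4963 in the main fit. The direction of small changes therefore depends on the scaling. List counts with TMM-like scaling are to be read beside 3700 higher and 3643 lower of all 12270 genes. Those with quantile normalization are to be read beside 3247 higher and 4173 lower. Lists with a median near 0 could change sign with it. The proteasome subunits had 7 higher and 9 lower of 30 in the main fit and 13 higher and 1 lower with TMM-like scaling. A list of the BCL2 family and other cell death genes, Birc3 and Casp4 among them, had 5 higher and 9 lower of 21. With TMM-like scaling that list had 10 higher and 6 lower.

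Among large changes, increases outnumbered decreases. At least 2-fold changes were called for 482 genes that rose (3.93%) and 372 that fell (3.03%). At 4-fold the counts were 116 higher and 30 lower, at 8-fold 46 and 5, and at 16-fold 21 and 0. The 482 genes that rose at least 2-fold held 7.11 ± 0.014% of summed FPKM in imDC libraries and 2.00 ± 0.012% in control libraries. The 372 genes that fell held 1.01 ± 0.0060% in imDC and 2.85 ± 0.014% in control. Calls were more frequent among abundant genes, with 83.2% of the 800 genes at 100 FPKM or more and 44.9% of the 1380 genes under 2 FPKM.

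**Figure D2:**
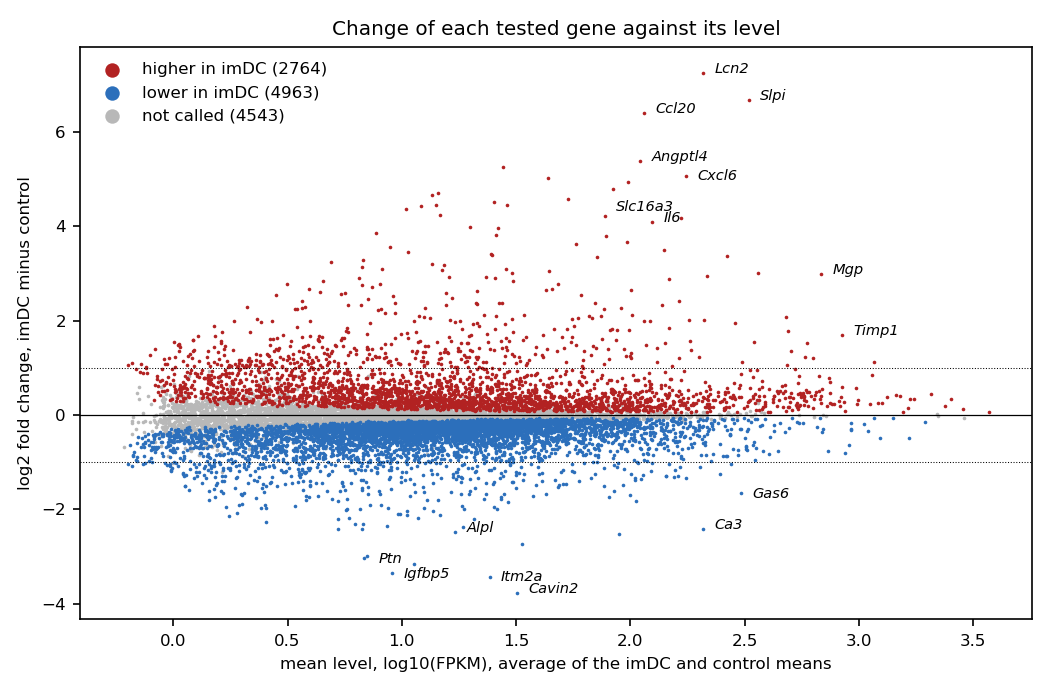
Change of each tested gene against its level. The horizontal axis is the mean level as log10(FPKM) and the vertical axis the log2 fold change, imDC minus control; dotted lines mark 2-fold changes. The 2764 genes called higher (red) reach beyond 7 for Lcn2, while the 4963 called lower (blue) end at Cavin2, at -3.77.

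The highest fold changes belonged to secreted proteins of innate defence. Lcn2, which encodes a protein that withholds iron from bacteria, had 411, 411 and 416 FPKM in imDC libraries, against 1.86, 2.30, 1.19 and 1.72 FPKM in control libraries. Its change of 7.24 (SE 0.11, adjusted p = 7.1e-11) was the highest of all genes with a symbol and at least 5 FPKM. Slpi, an inhibitor of neutrophil proteases, had 643, 666 and 649.9 FPKM in imDC libraries, against 7.87, 6.38, 4.16 and 4.12 FPKM in control libraries. Wfdc18, a small secreted protein with the same kind of inhibitor fold, had 186, 187 and 196 FPKM in imDC libraries, against 4.71, 4.44, 7.21 and 5.06 FPKM in control libraries. For all 3 genes each imDC library lay far above every control library, and groups did not overlap for 63.3% of all genes, with imDC above for 22.8% and below for 40.5%. C3, the central complement protein, had 55.1, 53.4 and 55.5 FPKM in imDC libraries, against 0.763, 0.522, 0.189 and 0.456 FPKM in control libraries, a change of 5.24 (SE 0.12, adjusted p = 5.7e-10). Of 13 secreted antimicrobial and acute-phase genes tested, 10 rose and 2 fell, against 22.5% and 40.4% of all genes, with a median change of 2.63. They included Ptx3, a soluble pattern receptor (107 ± 1.16 FPKM in imDC and 7.85 ± 0.686 FPKM in control), Lbp, which carries bacterial lipopolysaccharide (173 ± 3.82 FPKM in imDC and 27.0 ± 0.979 FPKM in control), Hp, which binds free haemoglobin (37.3 ± 2.78 FPKM in imDC and 5.17 ± 0.474 FPKM in control), and Hpx, which binds free haem (25.2 ± 1.33 FPKM in imDC and 1.85 ± 0.329 FPKM in control). The members that fell were Lyz2, by 0.07, and S100a4, by 0.31. The sign for Lyz2 turned with TMM-like scaling, where it was not called.

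**Figure D3:**
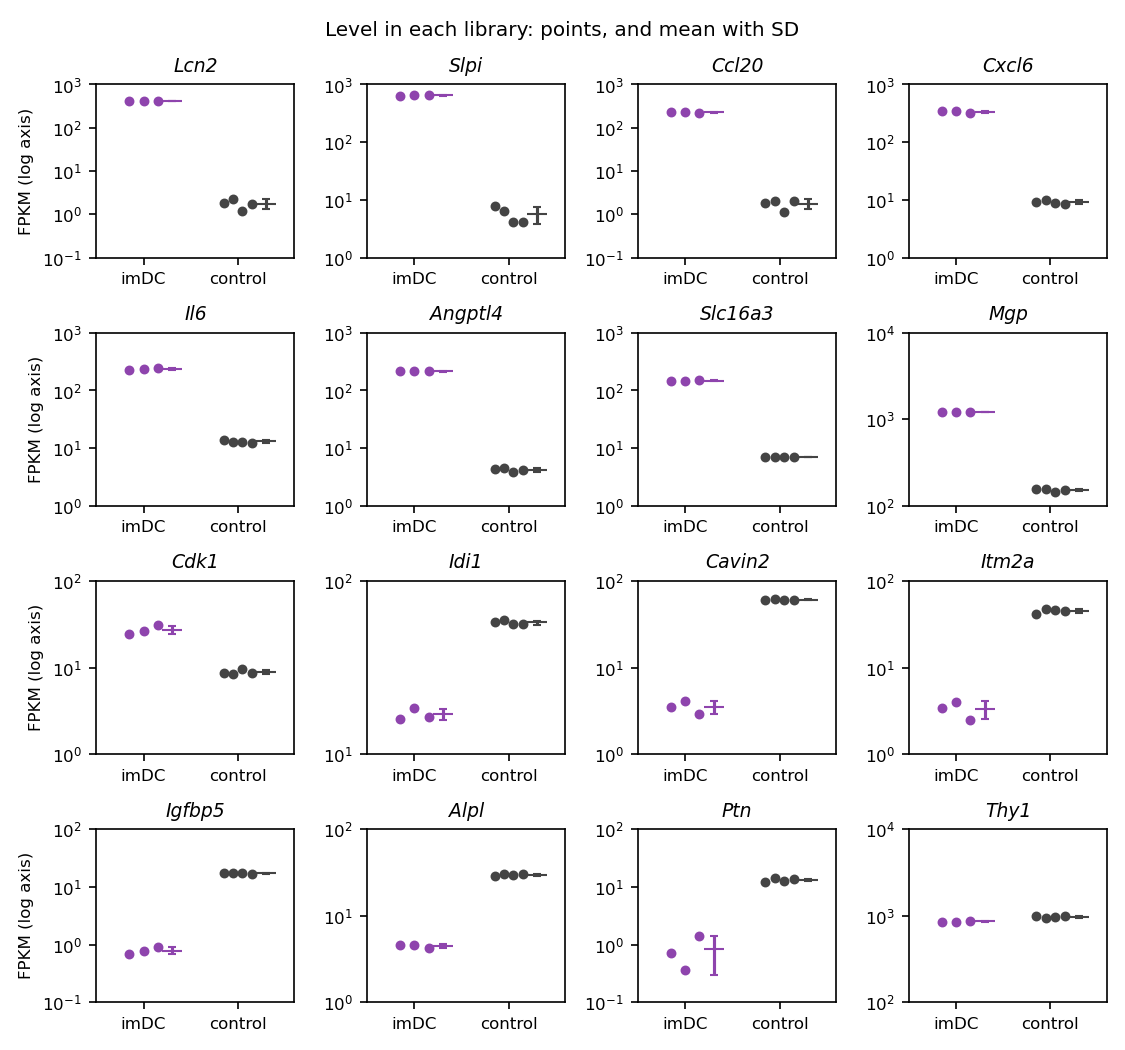
Levels of 16 genes in each library on log axes, with imDC left of control in each panel; points are libraries and the bar beside them is the mean with its SD. Lcn2, Slpi, Ccl20 and Cxcl6 stood more than 30-fold apart, and Thy1, a stromal surface gene, averaged 862 FPKM in imDC and 977 FPKM in control.

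Chemokine genes rose as a group. All 9 tested CXC chemokine genes rose, with a median change of 2.87. Cxcl6, a chemokine that draws neutrophils, had 347, 348 and 325 FPKM in imDC libraries, against 9.32, 10.1, 8.83 and 8.40 FPKM in control libraries, and changed by 5.07 (SE 0.055, adjusted p = 1.0e-11). Cxcl3, of the same class, had 164, 166 and 158 FPKM in imDC libraries, against 4.597, 5.27, 5.56 and 4.4 FPKM in control libraries. No control library came near an imDC library in either gene. Cxcl1 averaged 261 ± 4.66 FPKM in imDC and 34.9 ± 2.61 FPKM in control, and Cxcl2 9.65 ± 0.854 FPKM in imDC and 0.122 ± 0.0886 FPKM in control. Cxcl13, which attracts B cells, averaged 131 ± 4.37 FPKM in imDC and 12.05 ± 1.11 FPKM in control. Pf4, a platelet and macrophage chemokine (392 ± 6.41 FPKM in imDC and 215 ± 8.81 FPKM in control), and Cxcl12, which holds blood stem cells in the niche, moved less, by 0.87 and 0.48. The interferon-induced members Cxcl9, Cxcl10 and Cxcl11 lay under the filter, and Cxcl10 averaged 0.154 ± 0.101 FPKM in imDC and 0.189 ± 0.0884 FPKM in control.

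Among 8 tested CC and CX3C chemokine genes 5 rose and 1 fell. Ccl20, which attracts cells that carry CCR6, had 231, 229 and 225 FPKM in imDC libraries, against 1.80, 2.09, 1.14 and 2.06 FPKM in control libraries, a change of 6.38 (SE 0.11, adjusted p = 1.6e-10). The monocyte attractants Ccl2 (775 ± 18.9 FPKM in imDC and 184 ± 3.32 FPKM in control) and Ccl7 (641 ± 8.66 FPKM in imDC and 79.2 ± 1.43 FPKM in control) were among the 10 genes with the largest gain of FPKM. Ccl6 averaged 15.2 ± 0.672 FPKM in imDC and 0.135 ± 0.148 FPKM in control, and Ccl12 27.4 ± 1.38 FPKM in imDC and 2.48 ± 0.858 FPKM in control. Ccl3 and Ccl4 were not called (3.46 FPKM in imDC against 2.63 in control, adjusted p = 0.12; 3.69 FPKM in imDC against 2.92 in control, adjusted p = 0.089). Cx3cl1, a membrane-bound chemokine, fell to 3.70 FPKM in imDC against 7.90 in control.

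The bases before the start of 4 of these genes and of Il6 are printed because each holds the NF-kB site consensus, marked in capitals. Windows are from RefSeq promoters of build GRCr8, in the direction of the gene, and run from base -120 to base -41 before the start; all but Ccl20 lie on the minus strand.
Cxcl6 (chr14:17596458-17596537): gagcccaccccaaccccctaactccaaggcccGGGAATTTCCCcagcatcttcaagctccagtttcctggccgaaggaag
Cxcl1 (chr14:17479362-17479441): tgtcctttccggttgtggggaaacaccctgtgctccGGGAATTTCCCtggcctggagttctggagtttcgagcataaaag
Cxcl2 (chr14:17467296-17467375): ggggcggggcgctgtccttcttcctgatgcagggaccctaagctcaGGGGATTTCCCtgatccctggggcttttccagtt
Ccl20 (chr9:91837039-91837118): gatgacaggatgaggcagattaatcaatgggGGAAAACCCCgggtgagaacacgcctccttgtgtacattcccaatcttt
Il6 (chr4:5894616-5894695): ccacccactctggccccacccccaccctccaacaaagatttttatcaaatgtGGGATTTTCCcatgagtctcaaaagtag
Over 8846 tested genes with a promoter of the same symbol, the consensus lay within 250 bases before the start, on either strand, in 16.5% of 79 genes called at least 4-fold higher. It lay in 4.74% of 253 genes called at least 2-fold lower, and in 4.27% of all 8846. Of the 7 CXC chemokine genes with a promoter 3 held it. A match describes these letters and does not show binding.

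Interleukin and colony-stimulating factor genes split. Of 20 tested, 11 rose and 7 fell, with a median of 0.58. Il6, an acute-phase cytokine, had 227, 235 and 247 FPKM in imDC libraries, against 13.9, 13.1, 12.9 and 12.4 FPKM in control libraries, and changed by 4.08 (SE 0.042, adjusted p = 7.3e-12). Lif, a cytokine of the same receptor family, averaged 50.5 ± 1.75 FPKM in imDC and 2.34 ± 0.380 FPKM in control, and Il11 3.13 ± 0.614 FPKM in imDC and 0.837 ± 0.288 FPKM in control. Il1a, an alarm cytokine, had 31.0, 28.7 and 26.1 FPKM in imDC libraries, against 0, 0.105, 0.216 and 0.219 FPKM in control libraries, with 0 reads in 1 control library. Csf3, the growth factor of neutrophils, had 25.2, 26.9 and 28.8 FPKM in imDC libraries, against 0.182, 0.0688, 0.0910 and 0.0718 FPKM in control libraries. Both were close to 0 in each control library and above 25 FPKM in each imDC library. Il1b averaged 2.18 ± 0.117 FPKM in imDC and 0.247 ± 0.193 FPKM in control, and Il1rn, the antagonist of the interleukin 1 receptor, 180.4 ± 2.43 FPKM in imDC and 13.4 ± 0.951 FPKM in control. The genes that fell included Kitlg, which keeps blood stem cells (33.8 ± 0.900 FPKM in imDC and 79.0 ± 2.13 FPKM in control), Il33, an alarm cytokine of stromal nuclei (8.96 ± 0.477 FPKM in imDC and 19.3 ± 0.768 FPKM in control), Tslp (2.17 ± 1.23 FPKM in imDC and 5.68 ± 0.510 FPKM in control), Il7, a lymphocyte survival factor (1.82 ± 0.506 FPKM in imDC and 3.00 ± 0.338 FPKM in control), and Csf1, the macrophage growth factor (112 ± 2.57 FPKM in imDC and 159 ± 2.99 FPKM in control).

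Receptors for these signals also changed. Of 28 cytokine and interferon receptor genes 14 rose and 9 fell, with a median of 0.14. Il4r averaged 54.6 ± 1.37 FPKM in imDC and 5.90 ± 0.355 FPKM in control, and Csf2rb, a shared receptor chain, 12.7 ± 0.571 FPKM in imDC and 1.5 ± 0.171 FPKM in control. The signalling receptor Il1r1 averaged 210.4 ± 2.71 FPKM in imDC and 72.0 ± 0.779 FPKM in control, its partner Il1rap 7.34 ± 0.486 FPKM in imDC and 2.78 ± 0.220 FPKM in control and the decoy Il1r2 2.84 ± 0.290 FPKM in imDC and 0.203 ± 0.134 FPKM in control. Osmr, the oncostatin M receptor, averaged 137 ± 0.616 FPKM in imDC and 51.4 ± 1.34 FPKM in control, and Il6st, the signalling chain of the interleukin 6 family, 356 ± 5.18 FPKM in imDC and 239.8 ± 4.84 FPKM in control, while Lifr was not called (4.00 FPKM in imDC against 4.74 in control, adjusted p = 0.053). Il1rl1, the receptor of interleukin 33, fell to 124 FPKM in imDC against 196 in control, so both it and its ligand were lower. Among 19 Toll-like, NOD and TNF receptor genes 9 rose (47.4%) and 8 fell (42.1%), beside 22.5% and 40.4% of all genes. Tlr2 rose to 26.8 FPKM in imDC against 10.6 in control, whereas Tlr3, Tlr4 and Tlr6 fell, Tlr4 to 4.16 FPKM in imDC against 7.59 in control. Nlrp3, an inflammasome sensor, rose to 12.9 FPKM in imDC against 3.95 in control.

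Of 20 complement genes 10 rose and 9 fell. Beside C3, Serping1, the C1 inhibitor, averaged 90.3 ± 3.805 FPKM in imDC and 21.2 ± 1.03 FPKM in control, and C7, a subunit of the pore that complement forms, fell to 1.69 FPKM in imDC against 9.76 in control. The C1q chains C1qa, C1qb and C1qc, which macrophages make, rose by 1.99, 2.33 and 2.34. The macrophage scavenger receptor gene Cd163 had 20.6, 19.98 and 20.4 FPKM in imDC libraries, against 0.752, 1.26, 1.04 and 0.773 FPKM in control libraries, and changed by 3.45 (SE 0.097, adjusted p = 2.7e-09). Trem2, a lipid receptor of macrophages, had 5.88, 5.65 and 5.92 FPKM in imDC libraries, against 22.1, 22.8, 22.9 and 23.5 FPKM in control libraries, and fell by 1.81 (SE 0.041). Of the 19 tested macrophage genes 9 rose and 8 fell, and their part in the complement result was not tested.

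Of 16 genes of prostaglandin synthesis and reception 7 rose and 5 fell, with a median of 0.05. Ptgs2, the inducible cyclooxygenase, had 321, 319 and 306 FPKM in imDC libraries, against 17.4, 16.9, 16.4 and 15.3 FPKM in control libraries, a change of 4.18 (SE 0.042, adjusted p = 7.0e-12). Ptges, which makes prostaglandin E2 from its product, had 57.8, 55.9 and 54.8 FPKM in imDC libraries, against 1.65, 1.35, 1.91 and 1.55 FPKM in control libraries. Phospholipase genes upstream rose too, Pla2g2a to 8.71 FPKM in imDC against 0.346 in control and Pla2g4a to 29.9 FPKM in imDC against 12.3 in control, as did the transporter Slco2a1, to 23.1 FPKM in imDC against 11.0 in control. The constitutive cyclooxygenase Ptgs1 fell to 27.8 FPKM in imDC against 45.2 in control, and the prostaglandin E2 receptor Ptger1 to 4.34 FPKM in imDC against 11.2 in control. Another receptor of it, Ptger4, fell to 5.21 FPKM in imDC against 8.82 in control.

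NF-kB subunits and feedback inhibitors were mostly higher. Of 24 tested, 15 rose and 6 fell, with a median of 0.47. The inducible inhibitors and cofactors Bcl3, Nfkbiz and Tnip3 rose by 2.10, 2.03 and 2.03, and Nfkbia, which holds NF-kB in the cytoplasm, by 0.85. The RNA-degrading regulator Zc3h12a rose by 1.58 and the ubiquitin editor Tnfaip3 by 0.96. The subunits Nfkb1, Nfkb2 and Relb rose by 0.55, 0.31 and 0.60, while Rela and Rel were not called (adjusted p = 0.65 and 0.14). The kinase subunit gene Ikbkg fell by 0.88. Of 20 JAK-STAT and SOCS regulators 5 rose and 9 fell, with a median of -0.12. Socs3, the feedback inhibitor of interleukin 6 signalling, averaged 84.7 ± 1.71 FPKM in imDC and 11.6 ± 1.45 FPKM in control, and Jak2 136 ± 0.992 FPKM in imDC and 38.5 ± 1.499 FPKM in control, while Stat3 was not called (82.5 FPKM in imDC against 79.4 in control, adjusted p = 0.054) and Jak1 fell by 0.51. Cebpd and Cebpb, partners of NF-kB at acute-phase genes, rose by 2.05 and 1.14, Junb by 1.54 and Myc by 1.34. Cebpa fell by 0.95 and Fos was not called (adjusted p = 0.3).

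Interferon-stimulated genes were mostly lower. Of 22 tested, 17 fell and 1 rose, with a median of -0.31, against 40.4% and 22.5% of all genes. With TMM-like scaling 11 fell and 1 rose. The transcription factors Irf7 and Irf1 fell by 1.17 and 0.95, the guanylate-binding protein Gbp2 by 0.81 and the ubiquitin-like protein Isg15 by 0.77. Usp18, which removes that modifier, rose by 0.73. Of 18 genes of MHC class I presentation 6 rose and 6 fell, with a median near 0 whose sign changed with TMM-like scaling, where 6 rose and 4 fell. All 10 called of the 15 tested genes named RT, the rat MHC region, rose, among them RT1-A1 (16.8 ± 0.306 FPKM in imDC and 6.22 ± 0.623 FPKM in control), RT1-CE10 (26.7 ± 0.748 FPKM in imDC and 11.7 ± 0.832 FPKM in control) and RT1-A2 (78.6 ± 3.95 FPKM in imDC and 43.8 ± 0.692 FPKM in control). These genes are near-identical copies that can share reads, so single values are uncertain. The presentation gene Tap1 and the immunoproteasome gene Psmb10 fell by 0.61 and 0.50, and B2m, the light chain, by 0.22.

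Genes that respond to low oxygen rose together. Of 28 tested, 24 rose and 3 fell, with a median of 1.00. Ndufa4l2, a mitochondrial protein that lowers electron transport, had 88.9, 79.7 and 87.8 FPKM in imDC libraries, against 1.85, 1.37, 2.12 and 1.48 FPKM in control libraries, and changed by 5.01 (SE 0.095, adjusted p = 2.4e-10). Cox4i2, the low-oxygen form of a cytochrome oxidase subunit, had 97.6, 103 and 109 FPKM in imDC libraries, against 3.40, 3.12, 4.64 and 2.51 FPKM in control libraries. In both the lowest imDC library exceeded the highest control library more than 20-fold. Ca12, a membrane carbonic anhydrase that helps export acid, averaged 20.7 ± 0.522 FPKM in imDC and 0.0644 ± 0.0183 FPKM in control. Ca9, of the same class, averaged 15.4 ± 0.230 FPKM in imDC and 0.930 ± 0.190 FPKM in control. The hydroxylases that mark hypoxia-inducible factors for destruction split, with Egln3 at 24.0 FPKM in imDC against 0.167 in control, Egln1 at 165 FPKM in imDC against 37.5 in control and Egln2 lower, at 16.7 FPKM in imDC against 21.3 in control. Hif1a itself averaged 273 ± 4.87 FPKM in imDC and 92.0 ± 3.12 FPKM in control, its partner Arnt fell by 0.28, and Epas1 rose by 0.40. Vegfa, the main vessel growth factor, averaged 289 ± 2.47 FPKM in imDC and 70.5 ± 0.985 FPKM in control, and Pdk1, which closes pyruvate dehydrogenase, 56.5 ± 2.19 FPKM in imDC and 12.2 ± 0.528 FPKM in control. The mitophagy receptor Bnip3 had 279, 275 and 270.2 FPKM in imDC libraries, against 52.2, 51.5, 49.9 and 51.1 FPKM in control libraries, and its relative Bnip3l rose less, by 0.56. Angptl4, a lipase inhibitor induced by low oxygen and fatty acids, had 213, 219.6 and 214 FPKM in imDC libraries, against 4.42, 4.49, 3.86 and 4.13 FPKM in control libraries.

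Glycolysis rose at nearly each step from glucose entry to lactate export. Of 19 tested genes 18 rose, none fell and Ldhb was not called (adjusted p = 0.11), with a median of 1.21. Slc16a3, the lactate exporter, had 146, 147 and 149.7 FPKM in imDC libraries, against 7.10, 7.08, 6.94 and 6.90 FPKM in control libraries, a change of 4.21 (SE 0.029, adjusted p = 1.3e-12). The glucose transporter Slc2a1 averaged 118 ± 1.80 FPKM in imDC and 21.9 ± 0.462 FPKM in control, and Pgk1 759 ± 12.1 FPKM in imDC and 220.4 ± 8.18 FPKM in control. The phosphofructokinase forms differed, with Pfkl higher by 2.06, Pfkp by 1.12 and Pfkm by 0.34. Ldha, which makes lactate, rose to 877 FPKM in imDC against 378 in control, and Pkm, the last step before it, to 651 FPKM in imDC against 312 in control. Of 14 enzymes of the pentose phosphate pathway and glycogen 6 rose and 6 fell, with a median of -0.07 that turned positive with TMM-like scaling. The glycogen phosphorylase Pygl rose by 1.89, the synthase Gys1 by 1.66 and the branching enzyme Gbe1 by 1.44.

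Windows of 2 of these promoters show ACGTG, the core of the hypoxia response element, on either strand in capitals. They run from base -120 to base -41 before the start in build GRCr8 (RefSeq), Bnip3 on the minus and Ldha on the plus strand.
Bnip3 (chr1:203155003-203155082): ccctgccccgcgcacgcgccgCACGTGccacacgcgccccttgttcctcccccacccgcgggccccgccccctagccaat
Ldha (chr1:106507972-106508051): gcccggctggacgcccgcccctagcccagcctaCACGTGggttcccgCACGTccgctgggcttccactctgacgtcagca
The core lay within 250 bases before the start, on either strand, in 9 of 23 genes of the low-oxygen list with a promoter and in 6 of 18 of the glycolysis list. It lay in 22.6% of all 8846 genes. The share was 25.3% of 79 genes called at least 4-fold higher and 23.0% of 330 called at least 2-fold higher. Of 253 genes called at least 2-fold lower 15.4% held it. Other lists held it too, in 7 of 19 genes of amino acid synthesis and the stress factor ATF4. It lay in 7 of 28 mitosis genes and 4 of 18 cholesterol genes.

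Genes of the tricarboxylic acid cycle fell slightly. Of 27 tested, 21 fell and none rose, with a median of -0.21, and with TMM-like scaling 13 fell and 3 rose. Idh1, a cytosolic source of NADPH, fell most, to 57.4 FPKM in imDC against 109 in control, and Pc, which refills the cycle from pyruvate, fell to 9.55 FPKM in imDC against 17.8 in control. The pyruvate dehydrogenase subunits Pdha1 and Pdhb fell by 0.34 and 0.36. Respiratory chain genes of the nucleus had small differences. Of 34 tested, 6 rose and 7 fell, with a median of 0.01, and with TMM-like scaling 15 rose and 1 fell. Cox4i1, the usual partner form of Cox4i2, was not called (285 ± 0.975 FPKM in imDC and 279.7 ± 11.6 FPKM in control, adjusted p = 0.44).

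**Figure D4:**
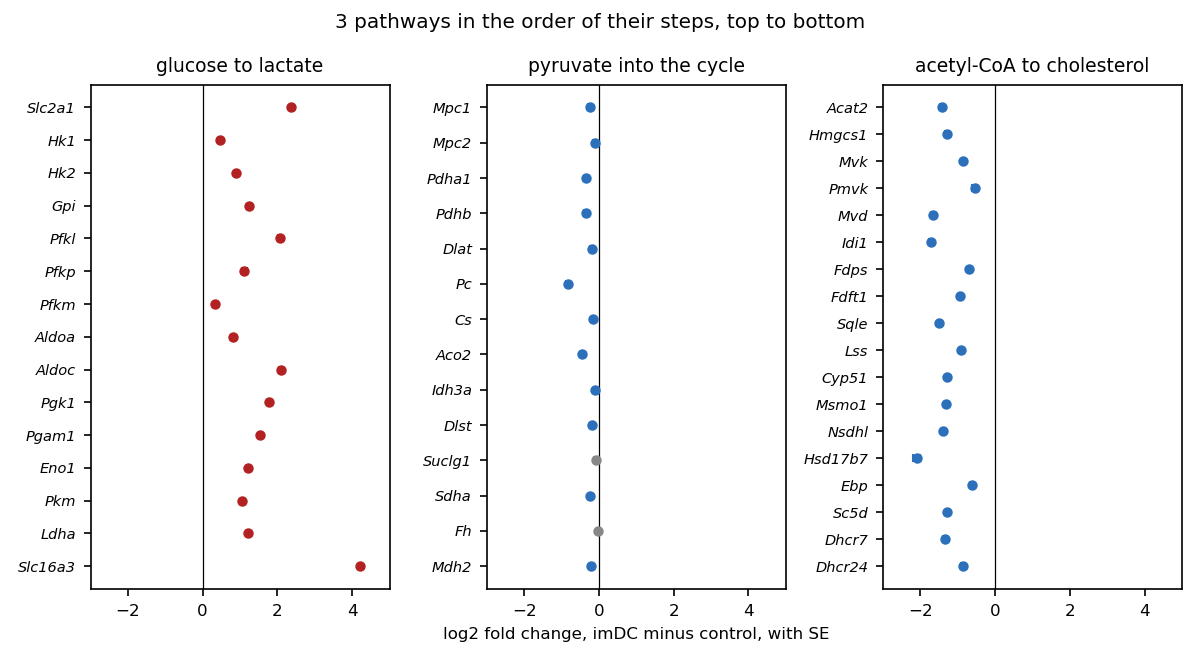
Enzymes of 3 pathways in the order of their steps, from top to bottom. The horizontal axis gives the log2 fold change, imDC minus control, with its SE, which for most genes is smaller than the point; red was called higher, blue called lower and grey not called. Genes from glucose entry to lactate export lie right of 0, those from acetyl-CoA to cholesterol left of it, and those of pyruvate entry and the cycle between -1 and 0.

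Cholesterol synthesis fell along the whole pathway. All 25 tested genes fell, with a median of -1.05, and did so with both other scalings. Idi1, which isomerises the isoprene unit, had 16.1, 18.5 and 16.4 FPKM in imDC libraries, against 57.7, 59.7, 56.4 and 56.6 FPKM in control libraries, and fell by 1.71 (SE 0.048). Each imDC library lay below each control library, as was so for 40.5% of all genes. Of the late steps, Hsd17b7 fell to 3.05 FPKM in imDC against 16.2 in control and Tm7sf2 to 3.12 FPKM in imDC against 16.4 in control. Insig1, the feedback protein, fell to 70.5 FPKM in imDC against 143 in control. Srebf2, the transcription factor of the pathway, fell to 22.0 FPKM in imDC against 36.5 in control. The sterol response element TCACNCCAC was found in 0 of 18 promoters of the list and in 1.04% of all 8846.

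Of 17 genes of fatty acid synthesis and desaturation 14 fell and 2 rose, with a median of -0.49. Scd, the stearoyl-CoA desaturase, fell to 27.1 FPKM in imDC against 77.0 in control, and Acss2, which activates acetate, to 12.5 FPKM in imDC against 29.6 in control. Fasn, fatty acid synthase, fell to 25.4 FPKM in imDC against 48.0 in control, whereas the acyl-CoA synthetases Acsl1 and Acsl4 rose by 0.24 and 0.24. Pparg, the fat cell regulator, had 3.73, 4.68 and 5.34 FPKM in imDC libraries, against 16.03, 17.9, 16.5 and 18.2 FPKM in control libraries, and fell by 1.71 (SE 0.095). Of the droplet genes, Plin4 fell to 0.382 FPKM in imDC against 2.22 in control and Plin2 rose to 57.5 FPKM in imDC against 45.4 in control. Dgat2, which makes triglyceride, rose to 13.5 FPKM in imDC against 5.78 in control.

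Of 21 genes of amino acid synthesis and of the response to the stress factor ATF4, 17 rose and 4 fell, with a median of 0.81. Mthfd1l, of mitochondrial one-carbon metabolism, averaged 26.7 ± 1.39 FPKM in imDC and 4.48 ± 0.448 FPKM in control, and Shmt2 63.1 ± 0.621 FPKM in imDC and 23.4 ± 0.495 FPKM in control. The proline enzyme Pycr1 rose to 13.5 FPKM in imDC against 5.38 in control and the serine enzyme Psat1 to 29.5 FPKM in imDC against 14.1 in control. Phgdh, the first enzyme of serine synthesis, rose to 26.0 FPKM in imDC against 15.02 in control. Ddit4, an inhibitor of mTOR signalling, rose to 107 FPKM in imDC against 24.2 in control. The members that fell were Shmt1, the cytosolic counterpart of Shmt2, by 0.57, the stress sensor Sesn2, by 0.15 (not called with TMM-like scaling, -0.051), and the stress factors Ddit3 and Atf3, by 0.32 and 0.30, while Trib3 rose by 1.40 and Atf4 by 0.35. The glutamine transporter Slc1a5 rose to 21.6 FPKM in imDC against 6.72 in control and the leucine transporter Slc7a5 to 31.3 FPKM in imDC against 13.8 in control. Of 20 cytosolic aminoacyl-tRNA synthetase genes 14 rose and none fell, Vars1 most, by 0.85.

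The ATF4 and CHOP element TGATGNAAN is shown in capitals in 2 of these promoters, from RefSeq build GRCr8 and on the minus strand, over bases -150 to -91 for Pycr1 and -60 to -1 for Trib3, where the match is on the opposite strand.
Pycr1 (chr10:106420903-106420962): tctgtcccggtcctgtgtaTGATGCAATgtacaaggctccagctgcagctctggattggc
Trib3 (chr3:161275534-161275593): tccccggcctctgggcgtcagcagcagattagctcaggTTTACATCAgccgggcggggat
It was found in 5 of 19 promoters of this list, and in 1.68% of all 8846 genes.

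Of 25 genes of endoplasmic reticulum folding and degradation 19 rose and 3 fell, with a median of 0.25. P4hb, a disulfide isomerase and collagen hydroxylase subunit, averaged 855 ± 6.45 FPKM in imDC and 484 ± 5.14 FPKM in control, and Hsp90b1 558 ± 6.89 FPKM in imDC and 364 ± 8.65 FPKM in control. Eif2ak3, the stress kinase PERK, fell by 0.48. Lysosome genes fell. Of 37 tested, 32 fell and 3 rose, with a median of -0.39, and with TMM-like scaling 30 fell and 5 rose. Asah1, which breaks down ceramide, fell to 96.4 FPKM in imDC against 199.7 in control, Mcoln1, the lysosomal calcium channel, to 17.04 FPKM in imDC against 34.0 in control, and Npc2, which moves cholesterol out of the lysosome, to 329 FPKM in imDC against 557 in control. The cathepsins Ctsz and Ctsh rose by 0.74 and 0.38. Of 27 autophagy and mitophagy genes 20 fell and 4 rose, with Pink1 and Sqstm1, a kinase and an adaptor that mark damaged mitochondria, lower by 0.66 and 0.58, beside the rise of Bnip3.

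Of 27 antioxidant genes and targets of the oxidant sensor NRF2 9 rose and 12 fell, with a median of -0.05 that turned positive with TMM-like scaling. The shares were 33.3% and 44.4%, beside 22.5% and 40.4% of all genes. Sod2, the mitochondrial superoxide dismutase, had 474, 487 and 482 FPKM in imDC libraries, against 48.0, 45.1, 44.8 and 46.5 FPKM in control libraries, a change of 3.36 (SE 0.027, adjusted p = 2.5e-12). Prdx5, a peroxidase, rose to 726 FPKM in imDC against 282 in control. The NRF2 target Nqo1 fell to 181 FPKM in imDC against 329 in control and Gclc, of glutathione synthesis, to 23.3 FPKM in imDC against 41.8 in control. Of 18 genes of iron and zinc handling 10 rose and 5 fell, with a median of 0.34. The metallothionein Mt2A, which binds zinc, averaged 385 ± 9.16 FPKM in imDC and 48.9 ± 1.79 FPKM in control, and Mt1, of the same class, 45.7 ± 6.28 FPKM in imDC and 5.29 ± 0.743 FPKM in control. Slc39a14, an importer of zinc and iron, averaged 151 ± 2.83 FPKM in imDC and 30.8 ± 1.02 FPKM in control. Heph, which helps iron leave the cell, fell to 3.85 FPKM in imDC against 9.94 in control.

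All 34 tested mitosis and spindle genes rose, with a median of 1.09. Cdk1, the mitotic kinase, had 24.7, 26.7 and 30.7 FPKM in imDC libraries, against 8.75, 8.34, 9.52 and 8.75 FPKM in control libraries, and changed by 1.52 (SE 0.072, adjusted p = 1.1e-07). Top2a, which untangles chromosomes, averaged 18.0 ± 0.873 FPKM in imDC and 5.51 ± 0.358 FPKM in control, and Mki67, the proliferation marker, 10.6 ± 0.237 FPKM in imDC and 3.75 ± 0.222 FPKM in control. Of 36 replication and nucleotide genes 22 rose and 2 fell, with a median of 0.25. Rrm2 rose to 47.9 FPKM in imDC against 13.5 in control and Tk1 to 12.2 FPKM in imDC against 3.98 in control, whereas Pcna, the polymerase clamp, rose by 0.19. Mcm4, of the replicative helicase, fell by 0.09, a call that was lost under most of the alternatives tried and a sign that turned with TMM-like scaling. Of 18 cyclin-dependent kinase inhibitors and early cyclins 5 rose and 9 fell, with a median of -0.12 beside -0.09 for all genes, of which 22.5% rose and 40.4% fell. The inhibitor Cdkn1c had 5.45, 5.82 and 4.63 FPKM in imDC libraries, against 30.3, 32.5, 32.2 and 31.3 FPKM in control libraries. Cdkn2b fell to 12.9 FPKM in imDC against 43.2 in control and Cdkn2a to 20.3 FPKM in imDC against 31.9 in control, while Cdkn1b rose by 0.60. Of the cyclins of entry into the cycle, Ccnd1 fell to 112 FPKM in imDC against 169 in control and Ccnd2 to 93.4 FPKM in imDC against 230.3 in control. Of 23 p53 targets 19 fell and 2 rose, with a median of -0.68. Mdm2 fell to 71.7 FPKM in imDC against 122 in control, Ccng1 to 179 FPKM in imDC against 371 in control and Tp53inp1 to 25.2 FPKM in imDC against 72.1 in control, while Btg2 rose to 31.2 FPKM in imDC against 8.92 in control.

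Of 31 growth factor ligands 18 rose and 13 fell, with a median of 0.31. Ligands of the EGF receptor rose in part, Hbegf to 34.3 FPKM in imDC against 8.17 in control, Tgfa to 32.9 FPKM in imDC against 7.89 in control and Nrg1, a ligand of related receptors, to 6.03 FPKM in imDC against 0.947 in control, but Areg fell by 0.59. Hgf, which acts on epithelia, rose to 7.11 FPKM in imDC against 1.55 in control. Among those that fell, Ptn, a heparin-binding growth factor, had 0.730, 0.359 and 1.44 FPKM in imDC libraries, against 12.4, 14.1, 12.9 and 13.6 FPKM in control libraries. Igf2 fell to 2.51 FPKM in imDC against 12.04 in control, Igf1 to 19.4 FPKM in imDC against 39.3 in control and Gas6, a ligand of receptor kinases, to 147 FPKM in imDC against 462 in control. Igfbp5, which binds insulin-like growth factors outside the cell, had 0.690, 0.785 and 0.897 FPKM in imDC libraries, against 17.2, 17.2, 17.8 and 17.05 FPKM in control libraries, and fell by 3.36 (SE 0.061). Of the stanniocalcins, which block a protease that frees these factors, Stc1 rose to 46.6 FPKM in imDC against 8.26 in control and Stc2 to 74.1 FPKM in imDC against 11.0 in control. Among 25 receptor kinase genes 7 rose and 13 fell, shares of 28.0% and 52.0% beside 22.5% and 40.4% of all genes, with Pdgfra at 131 FPKM in imDC against 78.2 in control and Pdgfrb at 128 FPKM in imDC against 187 in control, and Epha3 lowest, at 1.44 FPKM in imDC against 11.1 in control.

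Ligands and antagonists of TGF-beta, activin and BMP went both ways, with 11 of 25 higher and 12 lower and a median of 0.00 whose sign changed with quantile normalization. Inhba, the subunit of activin A, averaged 127 ± 4.23 FPKM in imDC and 26.0 ± 0.177 FPKM in control, and its antagonist Fstl3 20.8 ± 1.17 FPKM in imDC and 4.17 ± 0.210 FPKM in control. Tgfb2 and Tgfb3 fell by 0.87 and 0.59. Bmp4 fell to 25.6 FPKM in imDC against 68.0 in control and Bmp2 to 1.39 FPKM in imDC against 4.13 in control. Bmp6 rose to 5.38 FPKM in imDC against 1.14 in control, and Grem1, a BMP antagonist, rose to 1457 FPKM in imDC against 814 in control. Of the BMP response genes, Id4 fell to 3.60 FPKM in imDC against 17.5 in control, Id1 to 3.63 FPKM in imDC against 6.89 in control and Smad6 to 2.88 FPKM in imDC against 6.94 in control, while Id3 rose by 0.18. Of 20 TGF-beta and SMAD response genes 7 rose and 12 fell; Tgfbi rose to 54.5 FPKM in imDC against 21.7 in control. Among Wnt genes, the decoy Frzb rose to 6.29 FPKM in imDC against 0.535 in control and Sfrp1 to 466 FPKM in imDC against 284 in control, whereas Dkk3, Wnt9a and Wnt16 fell by 1.33, 1.39 and 1.45. Of 7 tested Notch receptor, ligand and target genes 3 rose and 3 fell, 42.9% each, beside 22.5% and 40.4% of all genes. The receptor Notch3 fell to 0.710 FPKM in imDC against 2.5 in control. The ligand Jag1 fell to 5.03 FPKM in imDC against 17.7 in control. The target Hes1 fell to 1.47 FPKM in imDC against 10.2 in control. Notch4, another receptor, rose to 1.97 FPKM in imDC against 0.159 in control.

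Matrix genes went both ways. Of 16 collagen genes 8 rose and 8 fell, with a median of -0.02 that turned positive with TMM-like scaling. Col1a1, the main chain of bone and scar collagen, had 2411, 2375 and 2361 FPKM in imDC libraries, against 1791, 1716, 1779.8 and 1769 FPKM in control libraries. Col3a1, which builds fine fibrils, had 1384, 1370.2 and 1372 FPKM in imDC libraries, against 1939, 1872, 1930.5 and 1928 FPKM in control libraries. The first stood higher and the second lower in imDC without overlap, as did 22.8% and 40.5% of all genes. Collagens VI and IV fell, Col6a1 to 241 FPKM in imDC against 397 in control and Col4a1 to 117 FPKM in imDC against 223 in control. Of 19 hydroxylase and crosslinking genes 14 rose and 3 fell: Plod2, which sets stable crosslinks, averaged 335 ± 1.86 FPKM in imDC and 83.0 ± 2.18 FPKM in control, P4ha2 231 ± 2.77 FPKM in imDC and 63.5 ± 2.48 FPKM in control and Lox 932 ± 29.8 FPKM in imDC and 542 ± 7.07 FPKM in control, while Loxl1 fell to 85.8 FPKM in imDC against 151 in control. Mgp, an inhibitor of calcification, had 1211, 1207 and 1230.0 FPKM in imDC libraries, against 155, 155, 145 and 155 FPKM in control libraries, the largest gain of FPKM of all genes. Timp1, a protease inhibitor, had 1275, 1286 and 1308 FPKM in imDC libraries, against 401, 401, 379 and 401 FPKM in control libraries. Of 30 matrix proteases and inhibitors 14 rose and 12 fell. The stromelysin Mmp3 rose to 146 FPKM in imDC against 9.62 in control and Mmp10 to 28.3 FPKM in imDC against 2.30 in control. Mmp12, an elastase, rose to 204 FPKM in imDC against 99.2 in control and Mmp13, a collagenase, to 69.1 FPKM in imDC against 35.7 in control. The gelatinase Mmp2 fell to 706 FPKM in imDC against 1096 in control and its activator Mmp14 to 280.5 FPKM in imDC against 476 in control. Of the inhibitors, Timp2 fell to 542 FPKM in imDC against 919 in control and Timp3 to 6.76 FPKM in imDC against 34.5 in control. Emilin1, of elastic fibres, rose to 228 FPKM in imDC against 45.0 in control and Fmod, a proteoglycan, to 14.03 FPKM in imDC against 2.17 in control. The matricellular gene Ccn5 fell to 46.2 FPKM in imDC against 166 in control, Efemp1, of elastic fibres, to 9.92 FPKM in imDC against 40.8 in control and the proteoglycan Ogn to 4.96 FPKM in imDC against 24.5 in control. Of the cadherins, Cdh2 rose to 130.4 FPKM in imDC against 42.8 in control, whereas Cdh11 fell to 86.0 FPKM in imDC against 153 in control and Cdh13 to 9.34 FPKM in imDC against 30.3 in control.

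The steepest falls included genes of caveolae, mesenchyme and imprinted growth. Of 15 tested genes of caveolae, membrane traffic and imprinted growth 12 fell and 1 rose, with a median of -0.76. Cavin2, which shapes caveolae, the flask-like pits of the cell surface, had 3.51, 4.12 and 2.95 FPKM in imDC libraries, against 59.7, 61.5, 60.4 and 59.999 FPKM in control libraries, and its change of -3.77 (SE 0.075, adjusted p = 3.3e-10) was the strongest fall among genes with a symbol and at least 5 FPKM. Cavin1 fell to 96.3 FPKM in imDC against 218 in control, Cav1 by 0.18 and Cavin3 was not called (adjusted p = 0.28). Itm2a, a membrane protein of mesenchyme, had 3.45, 4.05 and 2.502 FPKM in imDC libraries, against 41.9, 47.5, 46.0 and 45.0 FPKM in control libraries. Pamr1, a secreted protein of muscle, averaged 1.49 ± 0.243 FPKM in imDC and 21.0 ± 0.725 FPKM in control, and Cilp, of cartilage, 0.709 ± 0.107 FPKM in imDC and 12.9 ± 0.456 FPKM in control. Nrep fell to 8.05 FPKM in imDC against 59.2 in control and Ephx1, a detoxifying hydrolase, to 25.5 FPKM in imDC against 152 in control. Ca3, a carbonic anhydrase of muscle and fat, had 65.9, 63.2 and 65.4 FPKM in imDC libraries, against 351, 349, 341 and 354 FPKM in control libraries. Among imprinted growth genes Igf2 and Cdkn1c fell, Plagl1 fell by 1.22, Peg3 fell by 0.87 and Ndn fell by 0.97, and Igf2r was not called (adjusted p = 0.59).

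Of 20 osteoblast and mineral genes 13 fell and 3 rose, with a median of -0.31. Alpl, the alkaline phosphatase of early osteoblasts, had 4.62, 4.62 and 4.26 FPKM in imDC libraries, against 28.9, 30.3, 29.3 and 30.1 FPKM in control libraries, and fell by 2.48 (SE 0.043). Dlx5, a bone transcription factor, fell to 2.85 FPKM in imDC against 6.61 in control, Pth1r, the parathyroid hormone receptor, to 3.27 FPKM in imDC against 6.72 in control and Smpd3 to 1.75 FPKM in imDC against 8.75 in control. The members that rose were Mgp, Enpp1, which makes the mineral inhibitor pyrophosphate (72.3 ± 0.936 FPKM in imDC and 19.8 ± 0.703 FPKM in control), and Phospho1, which frees phosphate (3.93 ± 0.630 FPKM in imDC and 2.27 ± 0.317 FPKM in control). Among stromal surface genes Nt5e, the CD73 enzyme that makes adenosine, had 83.4, 83.4 and 82.0 FPKM in imDC libraries, against 23.2, 21.1, 23.3 and 23.5 FPKM in control libraries, and Cd200, an inhibitory ligand for macrophages, rose to 22.6 FPKM in imDC against 9.93 in control. Vcam1, an adhesion molecule of the niche, fell to 16.8 FPKM in imDC against 32.7 in control, and Icam1 was not called (42.7 FPKM in imDC against 44.0 in control, adjusted p = 0.31). Prg4, the joint lubricant, rose to 51.8 FPKM in imDC against 5.23 in control. Cnn1, a smooth muscle protein, rose to 45.3 FPKM in imDC against 7.94 in control, while Acta2, smooth muscle actin, fell to 169 FPKM in imDC against 228 in control and Myocd, a driver of that programme, to 0.243 FPKM in imDC against 1.97 in control.

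Ribosomal protein genes rose by small amounts. Of 70 ribosomal protein genes 65 rose and none fell, with a median of 0.39; their reads can be shared with near-identical copies, so single genes are uncertain. With quantile normalization, which gives all libraries the same distribution, 50 rose and 4 fell. Of 40 mitochondrial ribosomal protein genes 17 rose and 4 fell, of 32 genes of ribosome assembly and the nucleolus 14 rose and 8 fell, and of 52 Eif genes, of translation initiation, 25 rose and 17 fell. Of 36 splicing factors 25 rose and 2 fell, with Hnrnpa1 higher by 0.74. Families of membrane traffic fell in most of their members, against 40.4% of all genes: 22 of 29 Arhgap genes, which switch off small GTPases, 35 of 57 Rab genes, which steer vesicles, and 19 of 28 Snx genes, which sort endosomes. With TMM-like scaling the counts that fell were 18, 25 and 13, beside 3643 of all 12270 genes. Of 213 genes named Zfp, zinc finger proteins, 88 fell and 17 rose, 41.3% falling beside 40.4% of all genes, and with TMM-like scaling 51 fell and 25 rose.

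**Figure D5:**
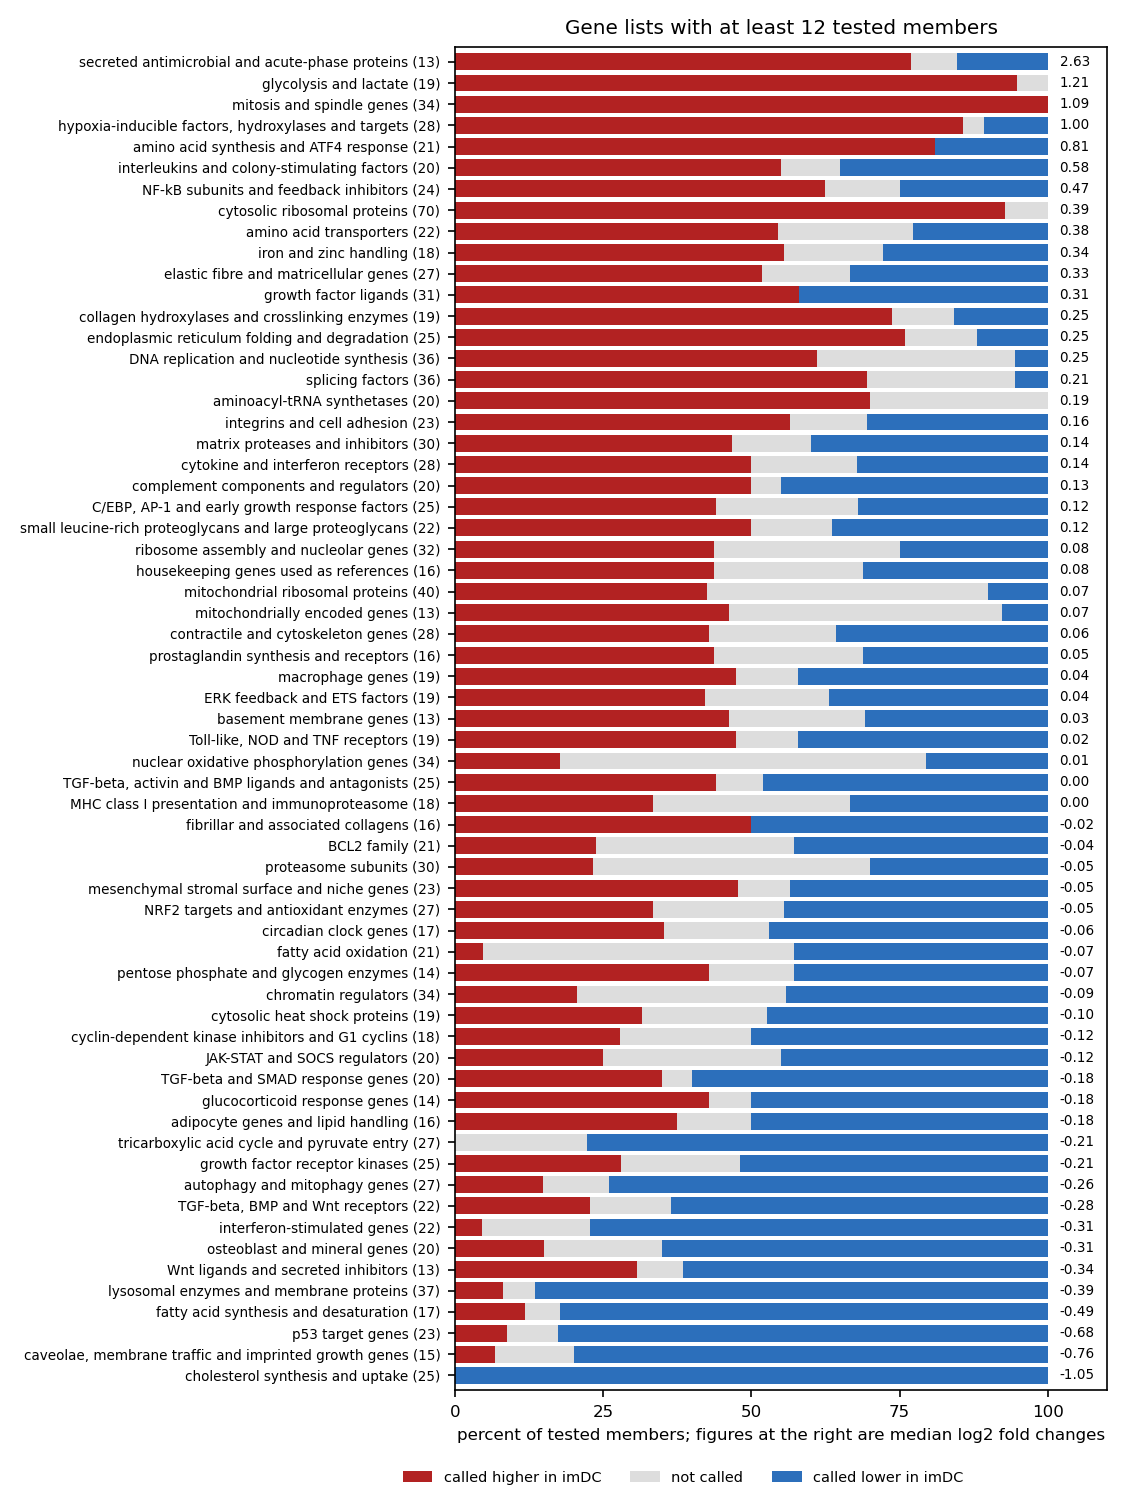
Shares of tested members called higher (red), called lower (blue) and not called (grey) in each gene list with at least 12 tested members, ordered by the median log2 fold change printed at the right, with the number tested in brackets. Antimicrobial, glycolysis, mitosis and low-oxygen genes are at the top, with medians of 1.00 or more, and cholesterol synthesis at the bottom, with -1.05.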

How the data were processed

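RNA was sequenced from rat BMSCs, and the authors deposited 1 table of FPKM values per gene and library. The submitters' processing notes name cutadapt 1.18, FastQC 0.11.9, STAR 2.7.1a, SAMtools 1.3.1, HTSeq 0.13.5, Cufflinks 0.17.3 and the build rn6, without their order or settings. FPKM divides by depth and length, so a few very abundant genes can shift all others. Columns were matched to libraries by name, and 0 columns belonged to another series. Whole reads could be recovered for all 21487 genes above 0, trivially so for 1676 seen in 1 library only, within a relative tolerance of 1e-08; they gave the depths and the reads behind a value of 0.

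Genes that reached 1 FPKM in 3 or more of the 7 libraries were tested with limma 3.58.1 in R 4.3.3 on log2(FPKM + 1), with a mean-variance trend and only these 7 libraries, and p-values were adjusted by Benjamini-Hochberg over 12270 genes. The script was tested on simulated data. The comparison and the 73 gene lists were chosen with earlier results of these data known. Genes named are the 12 highest and 12 lowest folds with at least 5 FPKM and no overlap, the 10 largest gains and 10 largest losses of FPKM, up to 4 called members of each list and 2 against its direction, genes with 0 reads in 1 group and at least 1 FPKM in the other, genes changed at least 8-fold, and cell type markers; any other gene named was chosen after its values were seen. Promoters are RefSeq's for build GRCr8, matched by symbol for 8846 genes; the deposited values came from rn6, and no coordinates were carried between builds. Each of 18 alternatives changed 1 choice: pseudocount, filter, scaling, libraries, replicate block, trend, weights, a count model or a left-out library. Some members of the lists are not reported here.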

Additional observations from a re-analysis of the deposited data

Results flagged for a closer look

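In 22 of the 304 genes named, 1 of the 4 control libraries stood apart from the other 3, by a gap that, as a share of the group's range, passed Dixon's critical value for 4 samples. Chance gives such a gap in about 1 of 20 groups. The 3 imDC libraries are too few for this rule. Control replicate 1 stood above the other 3 in Ccl7 at 81.3 FPKM, against 78.4 to 78.6 FPKM. Control replicate 2 stood above the other 3 in Enpp1 at 20.9 FPKM, against 19.5 FPKM. Control replicate 3 stood above the other 3 in Cilp at 13.6 FPKM, against 12.6 to 12.7 FPKM, in Epha3 at 11.8 FPKM, against 10.8 to 10.9 FPKM, and in Nfkb2 at 16.8 FPKM, against 13.9 to 14.1 FPKM. It also did so in Pkm at 323 FPKM, against 309 FPKM, in Rel at 2.26 FPKM, against 1.84 to 1.89 FPKM, and in Tlr2 at 11.3 FPKM, against 10.3 to 10.4 FPKM. Control replicate 1 stood below the other 3 in Igf2 at 11.3 FPKM, against 12.2 to 12.3 FPKM, and in Timp3 at 33.4 FPKM, against 34.7 to 34.95 FPKM. Control replicate 2 stood below the other 3 in Col3a1 at 1872 FPKM, against 1928 to 1939 FPKM, in Ephx1 at 147 FPKM, against 153 to 154 FPKM, and in Icam1 at 41.5 FPKM, against 44.7 to 45.1 FPKM. It also did so in Nt5e at 21.1 FPKM, against 23.2 to 23.5 FPKM, and in Phospho1 at 1.80 FPKM, against 2.37 to 2.48 FPKM. Control replicate 3 stood below the other 3 in Itgbl1 at 147 FPKM, against 153 to 154 FPKM, in Junb at 25.9 FPKM, against 28.3 to 28.6 FPKM, and in Mgp at 145 FPKM, against 155 to 156 FPKM. It also did so in Pamr1 at 19.97 FPKM, against 21.3 to 21.5 FPKM, in Pgk1 at 208 FPKM, against 224 to 226 FPKM, and in Timp1 at 379 FPKM, against 401 FPKM. Control replicate 4 stood below the other 3 in Hgf at 1.32 FPKM, against 1.61 to 1.64 FPKM.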

How the results depend on the processing

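Of 291 called genes named, 287 kept their direction and stayed called under every one of the 18 alternatives that tested them. Lyz2, Mcm4, Cav1 and Sesn2 did not. Genes that miss the 5 FPKM filter were not tested with it, so that alternative says nothing about them. Lyz2 changed by 0.040, Mcm4 by 0.016, Cav1 by -0.072 and Sesn2 by -0.051 with TMM-like scaling, and none was called there, nor was Sesn2 with quantile normalization (-0.085). Among genes not called, signs turned with TMM-like scaling for Cavin3 (0.064), Cd44 (0.055), Icam1 (0.061), Rela (0.077) and Igf2r (0.091, called there), with quantile normalization for Cox4i1 (-0.018), Icam1 (0.017) and Rela (0.052), and without imDC replicate 3 for Rela (-0.064 to 0.0053 over the left-out libraries); the cause was not tested. Without imDC replicate 1 the call of Lyz2 was lost (-0.050), and that of Mcm4 was lost without any 1 library except control replicate 1 (-0.097 to -0.075). Of 13 genes not called, 2 stayed so in the same direction under every alternative that tested them. Calls were gained by Ccl3 without imDC replicate 3 (0.46), Ldhb without control replicate 3 (-0.16), Cox4i1 with TMM-like scaling (0.13), Cd44 with quantile normalization or all 11 libraries (-0.053 and -0.050) and Ccl4 with TMM-like scaling, the replicate block or without control replicate 4 (0.35 to 0.37). Lifr gained one with all 11 libraries, no trend, voom or without control replicate 1 or imDC replicate 1 (-0.26 to -0.20), and Stat3 with no filter, TMM-like scaling, array weights or voom (0.054 to 0.16). A filter at 5 FPKM, which tests 9154 genes, gave 2236 higher and 4132 lower. Apart from it and the 2 scalings, the alternatives gave 2556 to 2974 genes higher and 4574 to 5094 lower, against 2764 and 4963. The 2 scalings moved the split to 3700 higher and 3643 lower (TMM-like) and to 3247 and 4173 (quantile). With voom on recovered reads 1304 genes were called at least 2-fold changed, against 854, and with quantile normalization 21 calls were called in the opposite direction. Leaving out each library in turn gave 2563 to 2751 genes higher, 4574 to 4784 lower and 855 to 868 called at least 2-fold changed.

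Same-numbered libraries did not deviate together (Pearson's r of -0.05, 0.004 and -0.04 across genes). The labels do not say whether the numbers pair cultures. These values cannot decide it, since the deviations rest on 3 libraries per group and genes are not independent. With the replicate block 2556 genes were higher, 4602 lower and 861 at least 2-fold changed. Control replicate 4 has no imDC library of its number, so in this fit it does not enter the contrast. The median change was -0.098 both with the block and without control replicate 4, so these 2 alternatives are not separate checks of a change. Counting error limits genes near 1 FPKM, of which fewer were called. Scaling limits small changes. A single medium comparison, 3 and 4 libraries and RNA of a mixed culture limit what a change can be assigned to.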

Other observations

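Several genes outside the gene lists also differed widely, and they were chosen after their values were seen. Rnd1, which loosens the actin skeleton, averaged 49.5 ± 0.957 FPKM in imDC and 1.21 ± 0.1305 FPKM in control, and Gja5, a gap junction protein of vessels, 27.8 ± 0.355 FPKM in imDC and 0.324 ± 0.0227 FPKM in control. F3, tissue factor, which starts blood clotting, averaged 259 ± 1.93 FPKM in imDC and 22.3 ± 1.84 FPKM in control. Apln, the vascular peptide apelin, averaged 45.8 ± 1.97 FPKM in imDC and 3.39 ± 0.316 FPKM in control, and Angptl8, a secreted regulator of lipoprotein lipase, 28.9 ± 2.39 FPKM in imDC and 0.588 ± 0.198 FPKM in control. Arg1, arginase, averaged 37.8 ± 1.86 FPKM in imDC and 7.90 ± 0.154 FPKM in control, and Lsp1, an actin-binding protein of leukocytes, 79.4 ± 2.93 FPKM in imDC and 11.7 ± 0.985 FPKM in control. Upp1, which breaks down uridine, averaged 46.3 ± 2.44 FPKM in imDC and 3.49 ± 0.213 FPKM in control.

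Among genes that fell, Snai2, a transcription factor of mesenchyme, averaged 41.6 ± 2.29 FPKM in imDC and 129 ± 6.47 FPKM in control, and Nkd2, an inhibitor of Wnt signalling, 19.9 ± 0.656 FPKM in imDC and 65.3 ± 0.555 FPKM in control. Akap12, a kinase scaffold, averaged 36.6 ± 0.510 FPKM in imDC and 124 ± 1.179 FPKM in control, and Itgbl1 46.5 ± 1.53 FPKM in imDC and 152 ± 3.55 FPKM in control. Tnfsf18, a ligand of the TNF family, averaged 7.02 ± 0.282 FPKM in imDC and 29.5 ± 1.29 FPKM in control, and Lilrb3, a leukocyte receptor, 9.95 ± 0.660 FPKM in imDC and 42.3 ± 0.993 FPKM in control. In each of these 14 genes the imDC and control libraries did not overlap, as was so for 63.3% of all 12270 genes.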
